A study of Mus musculus with 24 samples.

Results

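The genes described here are 10 transcriptional regulators that establish or maintain brown fat identity: Ppargc1a, Ppargc1b, Esrra, Esrrg, Prdm16, Ebf2, Zic1, Pparg, Ppara and Irf4. They were found by gene symbol in a deposited table of 23017 genes, and all 10 were present and passed the filter on low values, as did 17263 genes in all. C57BL/6J mice supplied the brown adipose tissue, whose polyadenylated RNA was read in 24 libraries, 6 in each of 4 groups, and the series describes its animals as obese and insulin resistant. The TZP group received tirzepatide, which activates the receptors for the incretin hormones GIP and GLP-1, and the LAGIPRA group received a long-acting drug that activates the GIP receptor alone. PairFedVehicle mice received vehicle while their food was restricted to the intake of another group, and Vehicle mice received vehicle without pair feeding. The sources used here do not give doses, treatment times, age, sex, the group that set the pair-fed intake, or whether a library came from a single animal. The p-values therefore measure the spread between these libraries.

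Brown adipocytes burn fuel for heat through the mitochondrial uncoupling protein UCP1. PGC-1α (Ppargc1a) and PGC-1β (Ppargc1b) are coactivators that drive mitochondrial genes, largely through the estrogen-related receptors ERRα (Esrra) and ERRγ (Esrrg). EBF2 and PRDM16 select and keep the brown adipocyte fate. ZIC1 is a zinc finger factor used as a marker of classical brown fat. PPARγ (Pparg) is the master regulator of all adipocytes, PPARα (Ppara) directs fatty acid oxidation, and IRF4 is a factor induced by fasting and cold that partners PGC-1α.

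The tissue label was checked against its markers. The mean of 6 brown adipocyte markers, Ucp1 among them, lay between 11.65 and 13.01 on the deposited log2 scale in every library. Markers of skeletal muscle, which borders brown fat, varied widely within groups and averaged highest in LAGIPRA, with means of 16 genes from 1.24 to 9.42 in TZP, 6.11 to 9.28 in LAGIPRA, 0.94 to 10.11 in PairFedVehicle and 1.08 to 9.85 in Vehicle libraries. The tirzepatide group held libraries of different kinds. In TZP libraries 3 to 6, transcripts read lower the longer they were, with slopes of -0.064, -0.088, -0.117 and -0.165 log2 per doubling of length. TZP libraries 1 and 2 had slopes of 0.018 and 0.020, and the other 18 libraries lay between -0.0055 and 0.058. Among these 18, slopes averaged 0.044 in Vehicle (0.014 to 0.058), 0.0098 in LAGIPRA (-0.0055 to 0.048) and 0.012 in PairFedVehicle (-0.0017 to 0.029). Comparisons of LAGIPRA or PairFedVehicle with Vehicle thus carry a difference in slope too. Markers of endothelium also moved: 5 of 6 were lower in TZP than in Vehicle libraries, beside 10.3% of all genes. Their mean ran from 7.30 to 7.81 in TZP against 7.97 to 8.29 in Vehicle libraries. Read totals were not analysed here. The value that stands for 1 read was inferred as the most frequent low value of each library. Taken to be larger in a shallower library, it averaged 1.32 in TZP, 1.35 in LAGIPRA, 1.15 in PairFedVehicle and 1.04 in Vehicle libraries. With that value in the model, 45 genes in place of 2370 were called for LAGIPRA against Vehicle, none of them a regulator or a gene of the lists below. The part of any of these properties in the results below was not tested. Where calls named below were lost with TZP libraries 1 and 2 only, with TZP libraries 3 to 6 only or with one of these properties in the model, the loss is given beside them.

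The promoters of 8 of the 10 regulators were matched by symbol in RefSeq (GRCm38.p6), in windows from 250 bases before to 50 after each transcription start. Those of Ppargc1a (chr5:51567676-51567975), Esrra (chr19:6921759-6922058) and Zic1 (chr9:91365719-91366018), all on the minus strand, are shown 5′ to 3′ because Esrra and Zic1 carried the clearest differences between groups and Ppargc1a is the coactivator induced by cold. Capitals mark a half-site of the cAMP response element, TGACG on the opposite strand, which is background to how cold signals reach Ppargc1a.
Ppargc1a: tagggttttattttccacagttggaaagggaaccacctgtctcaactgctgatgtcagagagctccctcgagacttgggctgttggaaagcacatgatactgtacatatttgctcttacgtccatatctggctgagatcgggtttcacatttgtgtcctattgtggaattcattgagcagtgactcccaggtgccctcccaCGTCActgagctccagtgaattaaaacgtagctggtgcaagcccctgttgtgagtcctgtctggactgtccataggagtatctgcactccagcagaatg
Esrra: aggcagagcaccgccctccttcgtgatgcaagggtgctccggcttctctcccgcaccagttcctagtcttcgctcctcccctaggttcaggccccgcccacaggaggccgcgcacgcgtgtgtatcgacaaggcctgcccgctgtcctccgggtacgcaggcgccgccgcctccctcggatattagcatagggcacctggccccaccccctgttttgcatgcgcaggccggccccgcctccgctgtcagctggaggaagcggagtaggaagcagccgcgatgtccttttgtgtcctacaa
Zic1: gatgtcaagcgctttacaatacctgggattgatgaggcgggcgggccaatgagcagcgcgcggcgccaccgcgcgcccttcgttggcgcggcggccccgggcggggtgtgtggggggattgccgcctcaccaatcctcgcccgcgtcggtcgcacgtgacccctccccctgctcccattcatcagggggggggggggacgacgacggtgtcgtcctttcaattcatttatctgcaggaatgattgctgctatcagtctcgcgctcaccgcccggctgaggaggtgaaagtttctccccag
The capitals in the Ppargc1a window begin at base 202, upstream of the start. Either orientation of TGACG occurred in 20.8% of 32851 RefSeq windows of this length and in windows of 2 of the regulators, Ppara and Ppargc1a. The ERR half-site AAGGTCA, searched on both strands, occurred in 4.72% of windows and in none of the 13 windows of the 8 regulators. The windows differed in base composition, with 25 CpG dinucleotides and 66.0% GC for Esrra, 31 and 65.3% for Zic1, and 5 and 48.7% for Ppargc1a, beside medians of 7 and 52.7% over all windows.

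At most 3 of the 10 regulators were called in any comparison. A gene was called where limma's adjusted p, the Benjamini-Hochberg value over all 17263 genes, was under 0.05, and differences are log2 values of the first group minus the second. Against Vehicle, 3 of the 10 regulators were called with TZP (1 higher, 2 lower), where 11.7% of all genes were higher and 10.3% lower. With LAGIPRA 2 were called, both higher, beside 8.70% of all genes higher and 5.03% lower. With PairFedVehicle 2 were called, both higher, beside 4.96% higher and 3.66% lower. Against PairFedVehicle, 2 were called with TZP (1 higher, 1 lower, beside 8.39% of all genes higher and 8.02% lower) and 2 with LAGIPRA (1 higher, 1 lower, beside 7.30% higher and 4.55% lower). Between TZP and LAGIPRA none was called by limma (0.400% of all genes), with 2 at an unadjusted p under 0.05 and 2 called when libraries were weighted by quality. Each share rests on at most 3 genes and is not read as particular to these regulators. The median difference of the 10 genes was -0.16 with TZP, 0.25 with LAGIPRA and 0.03 with PairFedVehicle, each against Vehicle, beside medians of 0.04, 0.03 and 0.02 over all genes. All comparisons with Vehicle share the same 6 Vehicle libraries, and those with PairFedVehicle share theirs.

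**Figure D1:**
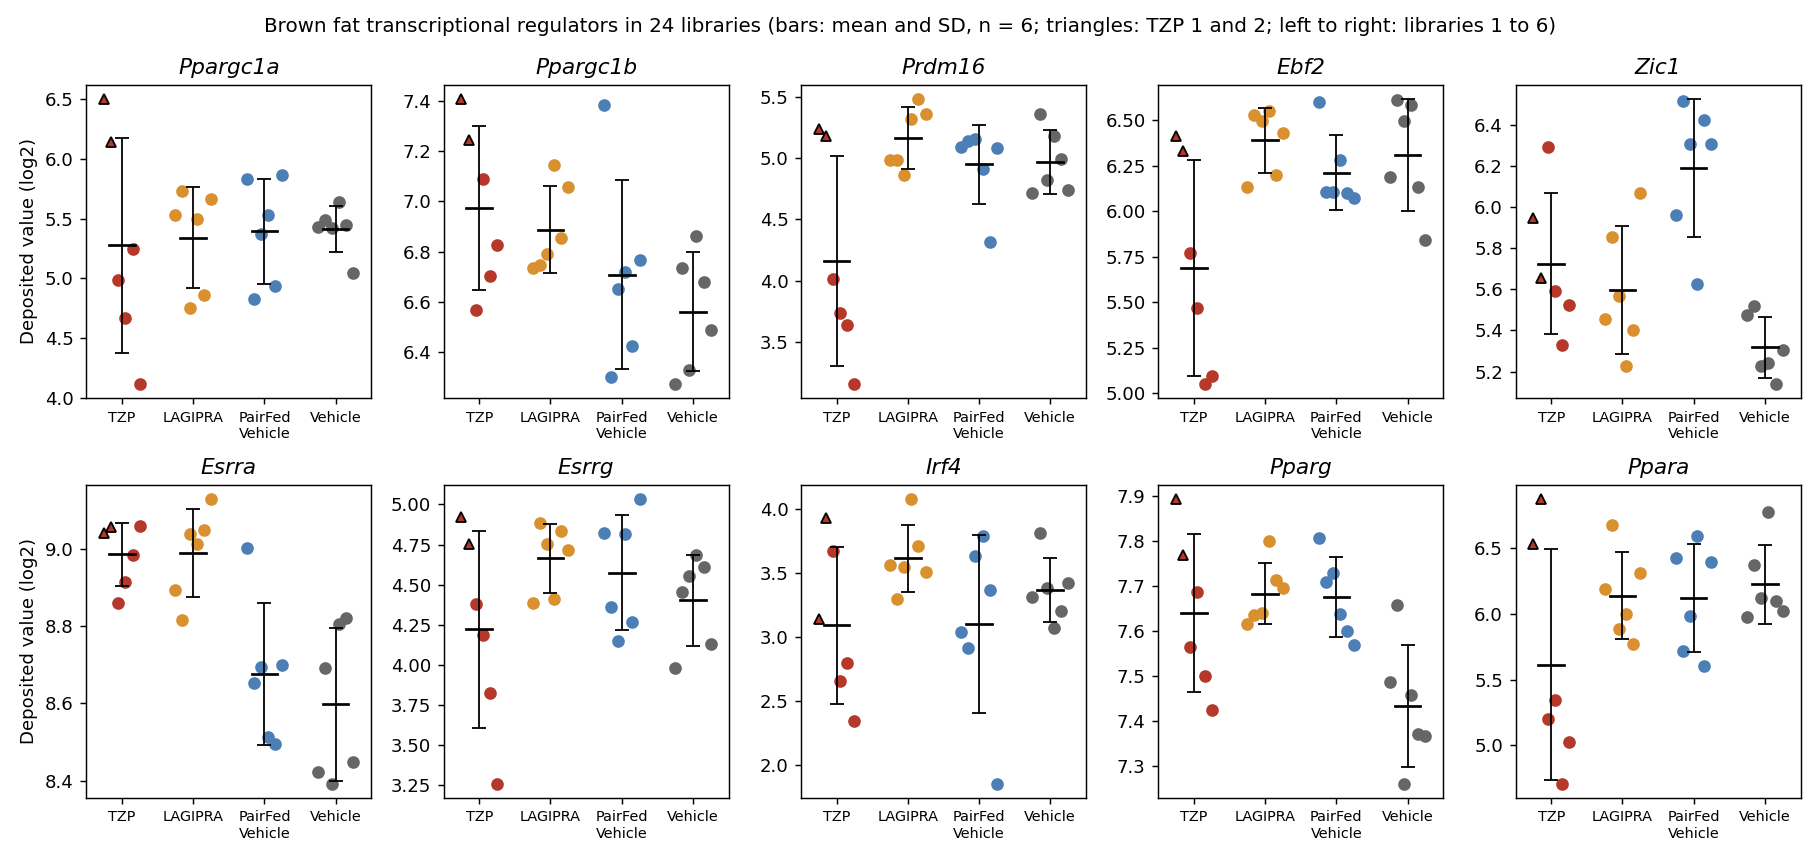
Deposited log2 values of the 10 regulators in each library, by group (TZP, LAGIPRA, PairFedVehicle, Vehicle), with the mean and SD of 6 libraries as bars, libraries 1 to 6 from left to right in each group and TZP 1 and 2 as triangles. Esrra is higher in both drug groups, Zic1 is highest in PairFedVehicle, and TZP libraries 3 to 6 sit below TZP 1 and 2 for Prdm16, Ebf2, Ppara and Ppargc1a.

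**Figure D2:**
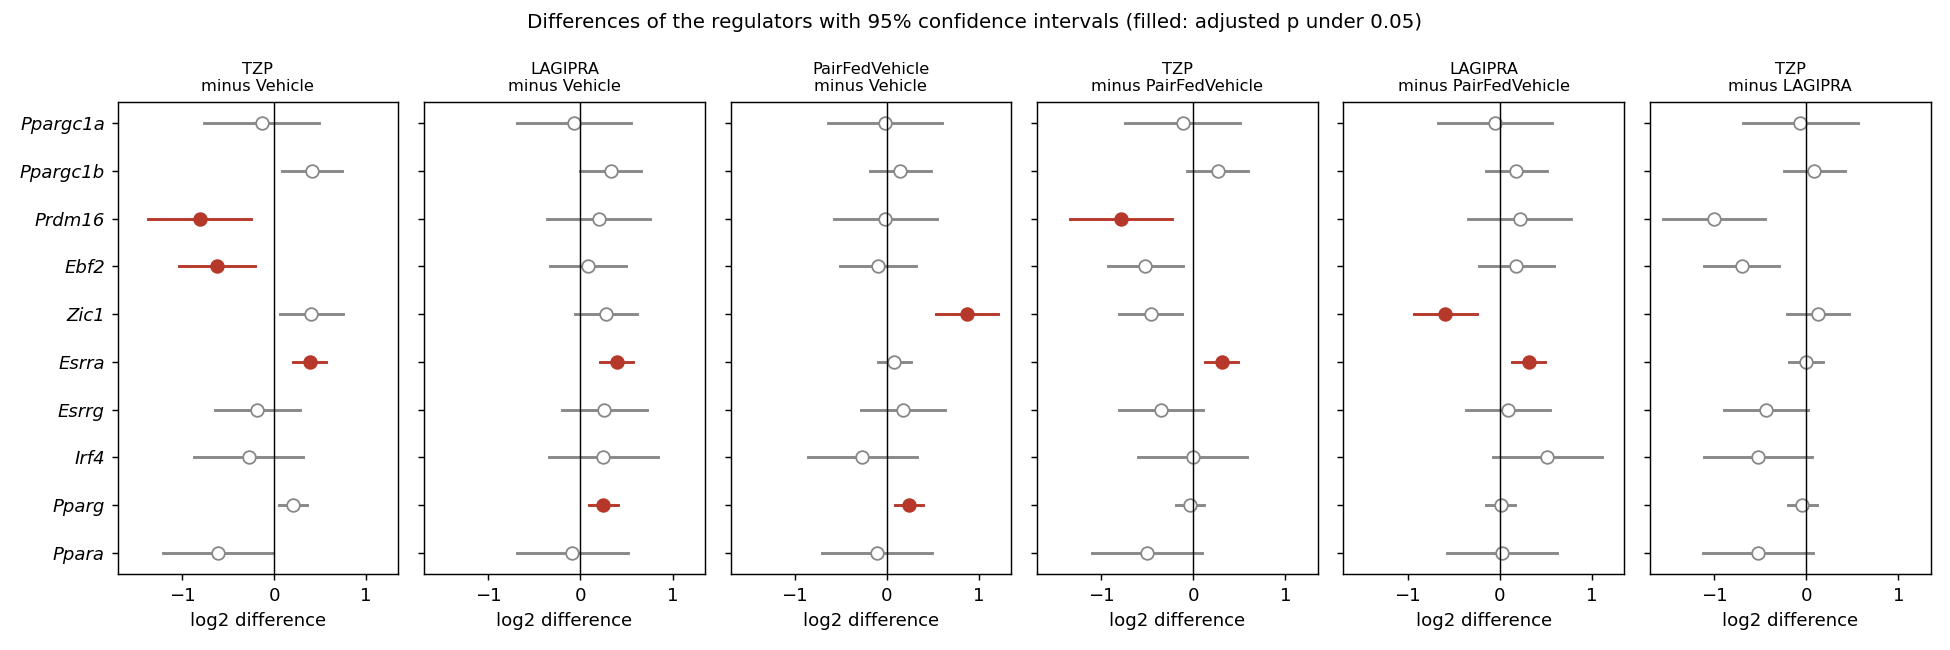
Log2 differences of the 10 regulators in the 6 comparisons, with 95% confidence intervals from limma over 24 libraries; filled red points passed an adjusted p of 0.05. Esrra is called in the 4 comparisons of a drug group with PairFedVehicle or Vehicle, and Zic1 in both comparisons that set PairFedVehicle against Vehicle or LAGIPRA.

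Esrra, which encodes ERRα, was higher with either drug than in Vehicle or in PairFedVehicle libraries. Its lowest, median and highest values were 8.86, 9.01 and 9.06 in TZP, 8.82, 9.02 and 9.13 in LAGIPRA, 8.49, 8.67 and 9.0 in PairFedVehicle and 8.39, 8.57 and 8.82 in Vehicle libraries. All 6 TZP libraries lay above all 6 Vehicle libraries, and LAGIPRA exceeded Vehicle in 35 of 36 pairs of libraries. The difference from Vehicle was 0.39 with TZP (SE 0.087, adjusted p = 0.0042) and 0.39 with LAGIPRA (SE 0.087, adjusted p = 0.0100), a 1.31-fold higher level in each. PairFedVehicle differed from Vehicle by 0.08 (95% interval -0.10 to 0.26, adjusted p = 0.651). Relative to PairFedVehicle, Esrra was 0.31 higher with TZP (adjusted p = 0.0180) and 0.31 higher with LAGIPRA (adjusted p = 0.0211). TZP and LAGIPRA differed by -0.00 (95% interval -0.18 to 0.18). Among the 17263 genes, 3.39% were higher in TZP than in Vehicle libraries with no overlap.

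The Esrra differences from Vehicle stayed called when any single library was left out. With TZP libraries 1 and 2 only the difference from Vehicle was 0.45 (adjusted p = 0.0528), and with TZP libraries 3 to 6 only it was 0.36, so that both sets of TZP libraries were above Vehicle. With each library's length slope in the model the TZP difference was 0.34 (adjusted p = 0.160). With the value of 1 read in the model, the LAGIPRA difference was 0.31 and no longer called (adjusted p = 0.130). Against PairFedVehicle, the TZP call was lost with the length slope in the model (0.28, adjusted p = 0.152), with TZP libraries 1 and 2 only (0.37, adjusted p = 0.101) and with TZP libraries 3 to 6 only (0.28, adjusted p = 0.0538). The LAGIPRA call against PairFedVehicle was lost with the value of 1 read in the model (adjusted p = 0.0838) and without LAGIPRA 6, PairFedVehicle 4 or PairFedVehicle 5, where the highest adjusted p was 0.0584. As tissue was measured in bulk, more or fewer cells of a type and more or less RNA per cell cannot be told apart here or in any result below.

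Ppargc1b, the PGC-1β gene, ran in the same direction as Esrra without passing the threshold. It ranged from 6.57 to 7.41 (median 6.96) in TZP, 6.73 to 7.14 (median 6.82) in LAGIPRA, 6.30 to 7.38 (median 6.68) in PairFedVehicle and 6.27 to 6.86 (median 6.58) in Vehicle libraries, and all groups overlapped. The difference from Vehicle was 0.41 with TZP (SE 0.160, adjusted p = 0.0666) and 0.33 with LAGIPRA (SE 0.160, adjusted p = 0.164). TZP libraries 1 and 2 held the highest values of the group, 7.41 and 7.24, and with these 2 libraries alone the difference from Vehicle was 0.76 (adjusted p = 0.0422). Within groups, Ppargc1b and Esrra moved together, with a Pearson correlation of 0.718 over 24 libraries and 0.797 over the 18 libraries outside TZP, after subtraction of group means. Libraries share depth and composition, so this is a description.

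Ppargc1a, the PGC-1α gene, was not called in any comparison and spread widely with TZP. In TZP libraries 1 to 6 it read 6.50, 6.14, 4.99, 4.67, 5.25 and 4.12. LAGIPRA libraries lay between 4.76 and 5.73 (median 5.52), PairFedVehicle between 4.83 and 5.86 (median 5.45) and Vehicle between 5.05 and 5.64 (median 5.44). TZP 1 and 2 thus stood above all 18 libraries of the other groups, while 3 of the other 4 stood below every Vehicle library. The mean difference was -0.13 for TZP against Vehicle (95% interval -0.76 to 0.49, adjusted p = 0.789), -0.07 for LAGIPRA and -0.02 for PairFedVehicle. Taken alone, TZP 1 and 2 differed from Vehicle by 0.91 (adjusted p = 0.0646) and TZP 3 to 6 by -0.66. Esrrg, which encodes ERRγ, behaved alike in TZP, from 4.92 and 4.76 in libraries 1 and 2 down to 3.26 in library 6, against 3.98 to 4.68 in Vehicle libraries. No comparison called Esrrg, and its difference from Vehicle was -0.18 with TZP (adjusted p = 0.597), 0.26 with LAGIPRA (adjusted p = 0.437) and 0.17 with PairFedVehicle (adjusted p = 0.704).

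Genes that PGC-1 coactivators and ERR receptors are known to activate were counted as a list of 14, all tested. With LAGIPRA 9 were higher than in Vehicle libraries and none was lower, beside 8.70% of all genes higher, and the list's median difference was 0.38 beside 0.03 for all genes. Skeletal muscle, which also expresses these mitochondrial genes, moved with this count: its 16 markers averaged 8.33 in LAGIPRA and 6.64 in Vehicle libraries, with a median difference of 1.85, although none was called. With the muscle mean in the model 6 of the 14 were higher, beside 1046 of 17263 genes. With TZP 3 were higher and none lower (median 0.23 beside 0.04, with 11.7% of all genes higher), and with PairFedVehicle only Vegfa, an angiogenic growth factor, was called (median 0.17 beside 0.02). The Vegfa call was lost with the value of 1 read in the model. Cycs, the cytochrome c gene, lay between 11.84 and 12.15 (median 12.01) in LAGIPRA against 11.40 to 11.90 (median 11.56) in Vehicle libraries, a difference of 0.38 (adjusted p = 0.0171). Idh3a, a subunit of the citric acid cycle enzyme isocitrate dehydrogenase, lay between 11.42 and 11.78 in LAGIPRA, against 10.92 to 11.29 in PairFedVehicle and 10.96 to 11.31 in Vehicle libraries, with no overlap with either. It was 0.49 above PairFedVehicle (adjusted p = 0.00238) and 0.40 above Vehicle (adjusted p = 0.0156). Cox5b, a subunit of respiratory complex IV, was 0.38 higher with LAGIPRA than in Vehicle libraries (adjusted p = 0.0144). Against PairFedVehicle fewer of the 14 were called. With LAGIPRA 3 were higher and none lower (median 0.14 beside -0.012, with 7.30% of all genes higher). With TZP 1 was higher and none lower (median -0.0093 beside -0.0024, with 8.39% of all genes higher). The counts moved with library properties. For LAGIPRA against Vehicle, no gene of the list was called with the value of 1 read in the model, beside 45 of 17263 genes. With the length slope 11 were, beside 2778 of 17263 genes. For TZP against Vehicle, 7 were higher with TZP libraries 1 and 2 only, beside 544 of 17263 genes. With libraries 3 to 6 only, 0 were higher and 1 lower, beside 1822 and 2250 of 17263 genes.

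**Figure D3:**
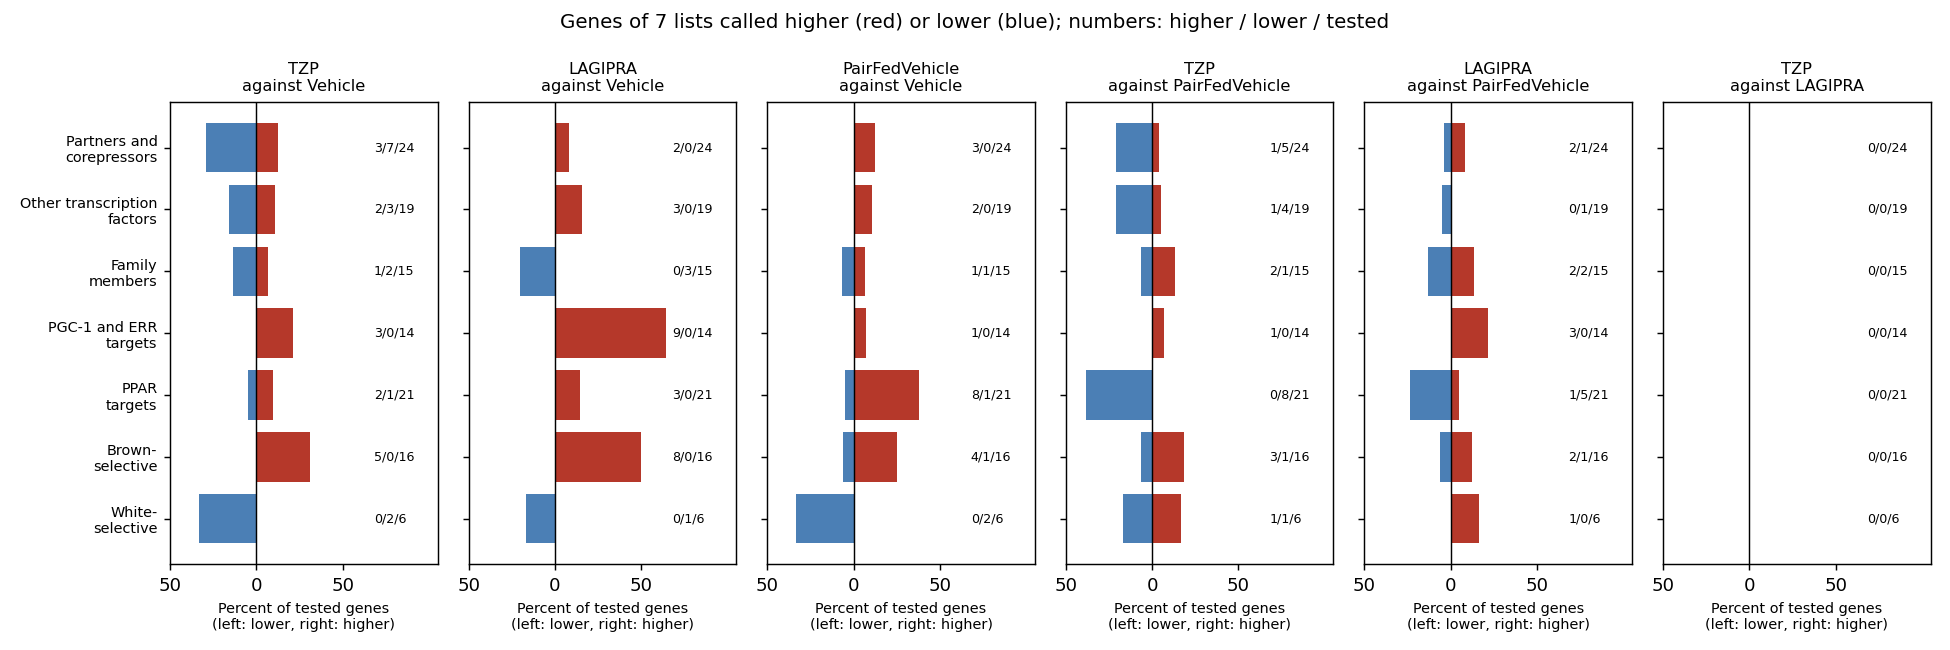
Share of the tested genes of 7 lists called higher (red, right) or lower (blue, left) in each of the 6 comparisons, with counts of higher, lower and tested genes beside the bars. PGC-1 and ERR targets stand out to the right for LAGIPRA against Vehicle (9 of 14), and PPAR targets for PairFedVehicle against Vehicle (8 higher and 1 lower of 21).

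Prdm16 and Ebf2, which fix brown fate, were lower on average with TZP, and the lower values came from 4 of its 6 libraries. Prdm16 read 5.24, 5.18, 4.02, 3.74, 3.64 and 3.16 in TZP libraries 1 to 6. It lay between 4.86 and 5.48 (median 5.15) in LAGIPRA, between 4.31 and 5.16 (median 5.09) in PairFedVehicle and between 4.72 and 5.35 (median 4.91) in Vehicle libraries. TZP 3 to 6 were below all 18 libraries of the other groups, whereas TZP 1 and 2 fell within the Vehicle range. The share of all genes with TZP 3 to 6 below these 18 libraries is not given here. The division is therefore not read as particular to any regulator. The mean difference was -0.81 against Vehicle (SE 0.270, adjusted p = 0.0351), -0.79 against PairFedVehicle (adjusted p = 0.0487) and -1.0 against LAGIPRA (adjusted p = 0.0658, not called).

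Ebf2 divided in the same place. Its values in TZP libraries 1 to 6 were 6.42, 6.33, 5.77, 5.47, 5.05 and 5.10, against 6.14 to 6.55 (median 6.47) in LAGIPRA, 6.07 to 6.6 (median 6.10) in PairFedVehicle and 5.84 to 6.61 (median 6.34) in Vehicle libraries. The last 4 TZP libraries were again below all 18 others. The mean difference was -0.62 against Vehicle (SE 0.198, adjusted p = 0.0281), -0.52 against PairFedVehicle (adjusted p = 0.0742) and -0.70 against LAGIPRA (adjusted p = 0.0737). LAGIPRA differed from Vehicle by 0.20 for Prdm16 (95% interval -0.36 to 0.76) and by 0.08 for Ebf2 (95% interval -0.33 to 0.49), and neither was called. The spread of each gene was estimated over all 4 groups together. The wide spread within TZP therefore enters intervals of comparisons without TZP, here and for Ppargc1a and Ppara.

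The 4 low libraries are those in which long transcripts read low. The longest annotated transcript is 8602 bases for Prdm16, 6464 for Ppargc1a, 5606 for Zic1, 5373 for Esrrg, 5204 for Ebf2 and 4764 for Irf4. It is 3656 bases for Ppargc1b, 3413 for Ppara, 2489 for Esrra and 2125 for Pparg. Zic1, longer than Ebf2, had none of TZP 3 to 6 below the Vehicle range and 3 above it, whereas Ppara, shorter than both, had all 4 below the 18 libraries of the other groups. With TZP libraries 1 and 2 alone the signs turned, to 0.24 for Prdm16 and 0.06 for Ebf2 against Vehicle, while with libraries 3 to 6 alone they were -1.33 and -0.96. With each library's length slope in the model the differences were 0.27 for Prdm16 and 0.21 for Ebf2, neither called. With the values corrected for transcript length, Prdm16 differed by -0.61 (adjusted p = 0.0707) and Ebf2 by -0.50 (adjusted p = 0.0457). Left out singly, TZP 3, 4, 5 or 6 or Vehicle 2, 3 or 4 ended the Prdm16 call against Vehicle (differences from -1.02 to -0.60, highest adjusted p = 0.0947). For Ebf2 it ended without TZP 4, 5 or 6 or Vehicle 2, 3 or 4 (differences from -0.77 to -0.49, highest adjusted p = 0.0790). With only the 2 groups fitted, the calls of Prdm16 and Ebf2 against Vehicle were both lost. The Prdm16 call against PairFedVehicle was kept in 9 of 25 alternatives. It was lost without any of TZP 3 to 6 or of PairFedVehicle 1 to 4 or 6 (highest adjusted p = 0.131). TZP libraries 1 and 2 only, the length slope in the model and correction for transcript length each ended it. So did no filter, no mean-variance trend, only the 2 groups fitted and a replicate block. Endothelial markers were lower in TZP as well, and the part of length, cell makeup or treatment in these values was not tested.

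**Figure D4:**
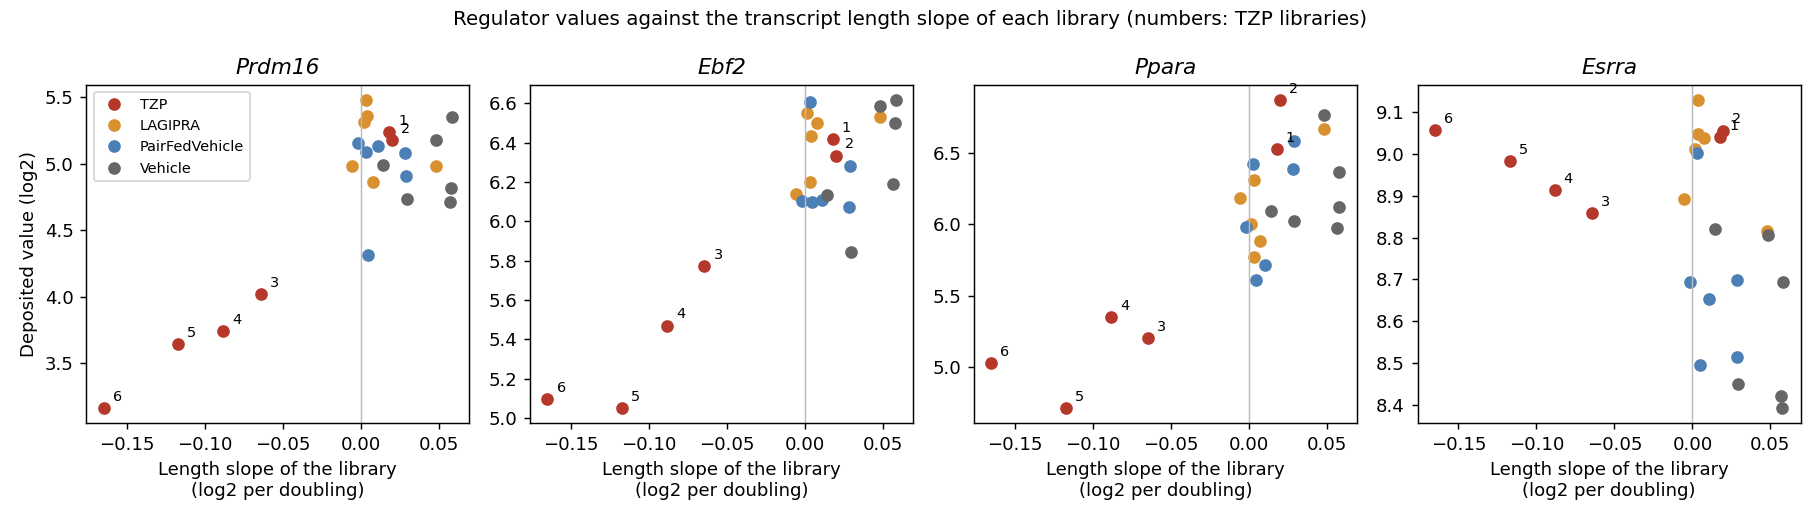
Deposited log2 values of Prdm16, Ebf2, Ppara and Esrra in each library against the library's length slope (log2 per doubling of transcript length), colored by group with TZP libraries numbered. TZP 3 to 6 have slopes of -0.064 to -0.165 and the lowest values of Prdm16, Ebf2 and Ppara, while their Esrra values of 8.86 to 9.06 lie above all Vehicle libraries.

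Among 24 tested partners and corepressors of these factors, 3 were higher and 7 lower in TZP than in Vehicle libraries, where 11.7% of all genes were higher and 10.3% lower. Their median difference was -0.10, beside 0.04 for all genes. The lower ones included Ncoa3, a nuclear receptor coactivator (-1.12, adjusted p = 0.00105), and Zfp516, a zinc finger protein that works with PRDM16 at the Ucp1 promoter (-0.94, adjusted p = 0.00165). Thrb, a thyroid hormone receptor counted among 19 other brown fat and mitochondrial factors, was 1.28 lower (adjusted p = 0.00348), and Mecom, the relative of Prdm16, was 0.49 lower (adjusted p = 0.00868). The Mecom call was lost with TZP libraries 1 and 2 only (-0.21, adjusted p = 0.346), with the length slope in the model (-0.13, adjusted p = 0.673) and with only the 2 groups fitted (adjusted p = 0.0547). None of the 24 partners was called with TZP libraries 1 and 2 only or with the length slope in the model, nor was Thrb. Of 17263 genes, 544 were higher and 273 lower with libraries 1 and 2 only, and 144 and 59 with the length slope. With libraries 3 to 6 only, 2 partners were higher and 10 lower, beside 1822 and 2250 of 17263 genes. Thrb read 4.23 and 4.14 in TZP 1 and 2 and 2.20 to 2.66 in TZP 3 to 6, against 4.08 to 4.59 in Vehicle libraries, which is the division seen for Prdm16. With LAGIPRA 2 of the 24 partners were higher than in Vehicle libraries and none lower, a share near the 8.70% of all genes, and with pair feeding 3 were higher, beside 4.96% of all genes.

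Zic1 was highest in pair-fed mice. Its lowest, median and highest values were 5.33, 5.62 and 6.29 in TZP, 5.23, 5.51 and 6.07 in LAGIPRA, 5.62, 6.31 and 6.51 in PairFedVehicle and 5.14, 5.27 and 5.52 in Vehicle libraries. All 6 pair-fed libraries exceeded all 6 Vehicle libraries, which 2.41% of all genes did. The difference was 0.87 (SE 0.164, adjusted p = 0.00174), a 1.83-fold higher level, and it was called under all 23 alternatives, with a range of 0.81 to 0.98. Zic1 was 0.59 lower with LAGIPRA than with pair feeding (-0.59, adjusted p = 0.0200), a call lost without LAGIPRA 4 or 5 or PairFedVehicle 2 or 5 (highest adjusted p = 0.0596). TZP differed from PairFedVehicle by -0.47 (adjusted p = 0.0549) and from Vehicle by 0.41 (adjusted p = 0.0794), and LAGIPRA from Vehicle by 0.28 (adjusted p = 0.252). In order of level the groups ran PairFedVehicle, TZP, LAGIPRA and Vehicle, where the neighbors TZP and LAGIPRA differed by 0.13 (95% interval -0.21 to 0.47).

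Zic4, the next protein-coding gene beside Zic1 in the RefSeq annotation and a member of the same family, moved the same way. It lay between 2.59 and 4.54 (median 3.59) in TZP, between 2.84 and 3.86 (median 3.57) in LAGIPRA, between 3.66 and 4.58 (median 4.29) in PairFedVehicle and between 2.54 and 4.0 (median 3.03) in Vehicle libraries. PairFedVehicle was 1.13 above Vehicle (SE 0.286, adjusted p = 0.0154), higher in 35 of 36 pairs, and the call held when any single library was left out. Lhx8, a homeobox gene used as a marker of classical brown fat, was 0.76 lower with LAGIPRA than with pair feeding, with no overlap (-0.76, adjusted p = 0.00465), and 0.64 lower with TZP (-0.64, adjusted p = 0.0124). The TZP difference was not called with libraries 1 and 2 only (-0.43, adjusted p = 0.279), with the length slope in the model or with only the 2 groups fitted. Against Vehicle, Lhx8 was not called in any group. S100b, a brown-selective gene known to promote innervation of brown fat, was lower with pair feeding, at 10.72 to 11.43 against 11.40 to 11.99 in Vehicle libraries (-0.69, adjusted p = 0.000537).

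Pparg, the adipocyte master regulator, was higher with LAGIPRA and with pair feeding than in Vehicle libraries, by small amounts. Its lowest, median and highest values were 7.42, 7.63 and 7.89 in TZP, 7.61, 7.67 and 7.80 in LAGIPRA, 7.57, 7.67 and 7.81 in PairFedVehicle and 7.26, 7.41 and 7.66 in Vehicle libraries. All groups overlapped, and Vehicle was lowest. The difference from Vehicle was 0.25 with LAGIPRA (SE 0.075, adjusted p = 0.0314), 0.24 with PairFedVehicle (SE 0.075, adjusted p = 0.0457) and 0.21 with TZP (SE 0.075, adjusted p = 0.0503, not called). The LAGIPRA call was lost without LAGIPRA 4, 5 or 6 or Vehicle 1, 3 or 6 (highest adjusted p = 0.0858), and with the value of 1 read in the model (0.15, adjusted p = 0.316). The pair-feeding call was lost without any of PairFedVehicle 1 to 4 or Vehicle 1 or 3 to 6 (highest adjusted p = 0.111), and with the value of 1 read in the model.

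Ppara, in contrast, was not called in any comparison. It read 6.53, 6.87, 5.20, 5.35, 4.71 and 5.03 in TZP libraries 1 to 6, against 5.77 to 6.67 (median 6.10) in LAGIPRA, 5.61 to 6.59 (median 6.19) in PairFedVehicle and 5.98 to 6.77 (median 6.11) in Vehicle libraries. TZP 3 to 6 lay below all 18 libraries of the other groups, as for Prdm16 and Ebf2, again without a share of all genes to set beside it. The difference from Vehicle was -0.61 with TZP (adjusted p = 0.132), 0.48 with TZP 1 and 2 alone and -1.15 with TZP 3 to 6 alone. PairFedVehicle differed from Vehicle by -0.11 (95% interval -0.71 to 0.49). Within groups, Ppara followed Ppargc1a, with a Pearson correlation of 0.814 over 24 libraries and 0.815 over the 18 outside TZP.

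Among targets of the PPAR receptors, more were higher than lower with pair feeding. Of 21 tested targets, 8 were higher and 1 lower in PairFedVehicle than in Vehicle libraries, with a median of 0.25 beside 0.02 for all genes, of which 4.96% were higher and 3.66% lower. Acot1, an acyl-CoA thioesterase, was 1.19 higher (adjusted p = 0.000875), Ehhadh, a peroxisomal β-oxidation enzyme, was 1.02 higher (adjusted p = 0.00452), and Slc27a1, a fatty acid transporter, was 0.73 higher (adjusted p = 0.000149). These 3 genes stayed called under every alternative run for this comparison.

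In the drug groups several of these targets were lower than with pair feeding. Against PairFedVehicle, 8 of the 21 targets were lower with TZP and none higher, beside 8.02% and 8.39% of all genes, and 5 were lower and 1 higher with LAGIPRA, beside 4.55% and 7.30%. With TZP libraries 1 and 2 only, 2 targets were lower and 1 higher, beside 330 and 701 of 17263 genes. With libraries 3 to 6 only 12 were lower, beside 2221 of 17263 genes. Ppard, which encodes the related receptor PPARδ, had the opposite pattern: it lay between 6.13 and 6.37 in TZP and between 5.90 and 6.56 in LAGIPRA, against 5.41 to 5.99 in PairFedVehicle libraries. The differences were 0.53 for TZP (adjusted p = 0.00196, no overlap) and 0.49 for LAGIPRA (adjusted p = 0.00398). Against Vehicle, pair-fed Ppard was 0.35 lower (-0.35, adjusted p = 0.0418), a call lost without any of 9 of the 12 libraries (highest adjusted p = 0.0991).

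Rxrb and Rxrg encode retinoid X receptors, which PPARs need as partners, and both were higher than in Vehicle libraries with either drug and with pair feeding. Rxrb was 0.43 higher with TZP (adjusted p = 0.00209, no overlap), 0.47 higher with LAGIPRA (adjusted p = 0.00514) and 0.31 higher with PairFedVehicle (adjusted p = 0.0286). Rxrg was 0.48 higher with TZP (adjusted p = 0.0110), 0.43 higher with LAGIPRA (adjusted p = 0.0325) and 0.54 higher with PairFedVehicle (adjusted p = 0.0110). The TZP calls of Rxrb and Rxrg were lost with TZP libraries 1 and 2 only (0.38, adjusted p = 0.0834, and 0.53, adjusted p = 0.110) and with the length slope in the model, and that of Rxrg also with the value of 1 read. With 1 library left out, the pair-feeding call of Rxrb and the LAGIPRA call of Rxrg were each lost in 6 of 12 cases, with highest adjusted p of 0.0759 and 0.0882. Both of these calls were also lost with the length slope in the model, and that of Rxrg with the muscle mean as well. With the value of 1 read in the model, the LAGIPRA calls of Rxrb (adjusted p = 0.0827) and Rxrg were lost. Cebpb, an early adipogenic factor and a partner of PRDM16, was 0.73 higher with TZP than with pair feeding (adjusted p = 0.000978) and 0.55 higher with LAGIPRA (adjusted p = 0.00908), and both calls held without any single library.

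Irf4 overlapped between all groups. It lay between 2.35 and 3.93 (median 2.97) in TZP, 3.30 and 4.08 (median 3.56) in LAGIPRA, 1.86 and 3.79 (median 3.21) in PairFedVehicle and 3.07 and 3.81 (median 3.35) in Vehicle libraries. No difference was called: -0.28 for TZP (95% interval -0.87 to 0.31), 0.25 for LAGIPRA (-0.34 to 0.84) and -0.27 for PairFedVehicle (-0.86 to 0.32), each against Vehicle. B lymphocytes also express Irf4, and the mean of 4 of their markers was low in every group, at 1.87 to 3.16 in TZP, 1.92 to 2.37 in LAGIPRA, 1.81 to 3.09 in PairFedVehicle and 1.85 to 3.01 in Vehicle libraries. Only 2 of these 4 B lymphocyte markers passed the filter on low values, and Ms4a1 was among those too low to be tested. Among its relatives, Irf7, a mediator of interferon responses, was 1.16 lower with LAGIPRA than in Vehicle libraries (-1.16, adjusted p = 0.00934) and 1.11 lower than with pair feeding (-1.11, adjusted p = 0.00573). The Irf7 call against Vehicle was lost with the value of 1 read in the model (adjusted p = 0.127). Of 7 macrophage markers, 3 were lower with LAGIPRA than in Vehicle libraries, beside 5.03% of all genes. Against PairFedVehicle, where Irf7 was also lower, none of the 7 was called (median -0.39). Their means were 7.22 to 8.30 in LAGIPRA against 7.72 to 8.88 in Vehicle libraries. The part of macrophages in the Irf7 difference was not tested.

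Ucp1, the effector of the brown program, was higher than in Vehicle libraries with either drug and with pair feeding. It lay between 15.09 and 15.91 (median 15.36) in TZP, 15.09 and 15.68 (median 15.26) in LAGIPRA, 15.09 and 15.51 (median 15.39) in PairFedVehicle and 14.70 and 15.14 (median 14.90) in Vehicle libraries. The difference from Vehicle was 0.50 with TZP (adjusted p = 0.00579), 0.41 with LAGIPRA (adjusted p = 0.0274) and 0.45 with PairFedVehicle (adjusted p = 0.0208). Without Vehicle 3 the pair-feeding call was lost (highest adjusted p = 0.0523), and without LAGIPRA 1 or Vehicle 1, 2, 3 or 6 the LAGIPRA call was (highest adjusted p = 0.0715). Of 16 brown-selective genes, 5 were higher and none lower with TZP, 8 and none with LAGIPRA, and 4 and 1 with PairFedVehicle, each against Vehicle. Of all genes, 11.7%, 8.70% and 4.96% were higher in these comparisons. With the value of 1 read in the model, the LAGIPRA count was 0, beside 25 of 17263 genes higher. With the muscle mean it was 6, beside 1046 of 17263 genes. Pank1, a pantothenate kinase that makes coenzyme A, was 0.51 higher with TZP (adjusted p = 0.00532) and 0.57 higher with LAGIPRA (adjusted p = 0.00783) than in Vehicle libraries. Mpzl2, an adhesion protein, was 0.87 higher with either drug (adjusted p = 0.00212 for TZP and 0.00681 for LAGIPRA) and 0.64 higher with PairFedVehicle (adjusted p = 0.0240, lost without PairFedVehicle 1 or Vehicle 1 or 3, highest adjusted p = 0.0664). With the length slope in the model the TZP difference of Mpzl2 was 0.96 and not called (adjusted p = 0.0676), and with the value of 1 read that of Pank1 was not (adjusted p = 0.0577).

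Of 10 white-selective genes, 6 passed the filter on low values, and none of these was called higher against Vehicle in any group. Of the 6, 2 were lower with TZP, 1 with LAGIPRA and 2 with PairFedVehicle, beside 10.3%, 5.03% and 3.66% of all genes. None was called against Vehicle with either set of TZP libraries taken alone. Lep, the satiety hormone leptin, lay between 6.39 and 7.64 in PairFedVehicle against 8.30 to 9.13 in Vehicle libraries (-1.59, adjusted p = 3.13e-05), and TZP was 0.90 above PairFedVehicle (adjusted p = 0.00557) and LAGIPRA 1.36 above (adjusted p = 0.000161). The TZP call of Lep against PairFedVehicle was lost with TZP libraries 1 and 2 only (0.73, adjusted p = 0.133) and with the length slope in the model (adjusted p = 0.0700). Tfam, the mitochondrial DNA transcription factor, was 0.31 higher with LAGIPRA (adjusted p = 0.0183) and 0.29 higher with PairFedVehicle (adjusted p = 0.0288) than in Vehicle libraries, with no overlap in either. The LAGIPRA call was lost without LAGIPRA 5 (highest adjusted p = 0.0525) and with the value of 1 read in the model (adjusted p = 0.188). The pair-feeding call was lost without PairFedVehicle 3 or 4 or Vehicle 5 or 6 (highest adjusted p = 0.0729).

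Across the 24 libraries, after subtraction of group means, each regulator had tested genes that varied closely with it. The closest to Prdm16 was Kansl1, a subunit of a histone acetyltransferase complex, with a Pearson correlation of 0.950 (0.872 over the 18 libraries outside TZP). Dock9 was closest to Ppara at 0.932 (0.879), Cgnl1 to Ebf2 at 0.915 (0.851) and Arfgef2 to Ppargc1a at 0.902 (0.756). For Esrra it was Mgll, the lipase that completes triglyceride breakdown, at 0.895 (0.916), and for Ppargc1b it was Coq6, an enzyme of coenzyme Q synthesis, at 0.871 (0.899). Slc1a3 was closest to Pparg at 0.891 (0.884), Nes to Esrrg at 0.885 (0.750), Tmem167b to Zic1 at 0.825 (0.850) and Rbm47 to Irf4 at 0.761 (0.665). Prdm16 and Ebf2 correlated at 0.775 over 24 libraries and at 0.307 over the 18 outside TZP. These values describe libraries that share depth, muscle content and length slope.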

How the data were processed

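Per the labels' protocols, polyA RNA was prepared after extraction by TRIzol and an RNeasy kit for lipid tissue. The submitters' processing notes name cutadapt 1.9.1 and GSNAP without a role; for build, annotation, counter and strandedness, nothing is given in the sources used here. Deposited values were taken as log2 values that the authors had quantile normalized, a scale inferred from the values (-0.50 to 22.35), so differences of weakly expressed genes may be understated. Read depth per library is unknown.

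The 25% of genes with the lowest mean (under 2.86) were left out, 5754 in all. One mean per group was fitted to all 24 libraries with limma 3.58.1 in R 4.3.3, with a mean-variance trend, and two-sided p-values were adjusted over 17263 genes. Summaries used pandas 2.3.3 in Python 3.11.15 and figures matplotlib 3.10.9. Levels are not per length and were not compared between genes. Length slopes regress each library, relative to the mean library, on log2 length of the longest GENCODE M21 transcript, known for 89.2% of tested genes. The procedure was tested on simulated data, with independent values and the same spread of a gene in all groups. The simulation held no length slope and no division within TZP, so it does not bear on these.

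The regulators and gene lists were chosen with earlier results of these data known. Named genes were all regulators, up to 3 called genes with the smallest p of each list and comparison, the closest correlates and Ucp1. List genes that matched no symbol were not analysed here, and some results are not reported here. The alternatives tried were other filters, variance models, weights, normalization, covariates, a replicate block, single TZP library sets and removal of each library.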

Additional observations from a re-analysis of the deposited data

Results flagged for a closer look

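Among 52 sets of 6 libraries examined, covering the 10 regulators and 3 library properties in 4 groups, 5 had a library that stood far from the rest of its group, where chance gives about 1 in 20. Ppargc1a in Vehicle 6 was 5.05, below the 5.42 to 5.64 of the other Vehicle libraries. Prdm16 in PairFedVehicle 5 was 4.31, below the 4.91 to 5.16 of the other pair-fed libraries, and that library also had the lowest skeletal muscle mean of all, 0.94. The length slope of LAGIPRA 2 was 0.0481, above the other LAGIPRA libraries. The mean of the skeletal muscle markers was 1.24 in TZP 3 and 6.11 in LAGIPRA 4, each the lowest of its group.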

How the results depend on the processing

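Zic1 and Zic4 in PairFedVehicle against Vehicle kept their calls in every alternative run, Zic1 between 0.81 and 0.98. Of the 1428 values of regulators under alternatives, 99 were sign changes of differences that were not called. The numbers of regulators called changed as follows. For TZP against Vehicle, 1 was called in place of 3 with only the 2 groups fitted and 1 with the length slope as covariate, 2 (both higher) with TZP libraries 1 and 2 only, 4 with the stricter filter, with array weights, with correction for transcript length (3 higher, 1 lower) or with TZP libraries 3 to 6 only, and 1 to 4 with a library left out. For LAGIPRA against Vehicle, 0 were called in place of 2 with the value of 1 read as covariate, 4 with the length slope, and 1 to 2 with a library left out. For PairFedVehicle against Vehicle, 1 was called in place of 2 with no mean-variance trend, with only the 2 groups, with the value of 1 read or with correction for transcript length, and 1 to 2 with a library left out. For TZP against PairFedVehicle, 1 was called in place of 2 with no filter, with no trend, with only the 2 groups or with correction for length, 0 with the length slope or TZP libraries 1 and 2 only, 3 with the stricter filter, array weights, the value of 1 read or the muscle mean, 4 with TZP libraries 3 to 6 only, and 1 to 4 with a library left out. For TZP against LAGIPRA, 2 were called in place of 0 with array weights, 1 with the value of 1 read, 4 with TZP libraries 3 to 6 only, and 0 to 2 with a library left out. For LAGIPRA against PairFedVehicle, 1 was called in place of 2 with the value of 1 read, and 0 to 2 with a library left out. The cause was not tested. The set of TZP libraries 3 to 6 was added after the data had been seen.

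Called differences turned sign in few cases. For TZP against Vehicle these were Prdm16 (0.27 with the length slope, 0.24 with TZP libraries 1 and 2 only), Ebf2 (0.21 and 0.0637), Gabpa (0.14 and 0.0327), Ncor1 (0.0384, length slope) and Plin4 (0.0796, length slope). For TZP against PairFedVehicle, with TZP libraries 1 and 2 only, they were Prdm16 (0.26), Thrb (0.10) and Zfp516 (0.0249). Over all genes, the 3805 calls of TZP against Vehicle became 203 with the length slope, 817 with TZP libraries 1 and 2 only, 2514 with only the 2 groups and 2496 with the value of 1 read. The 2832 calls of TZP against PairFedVehicle became 987, 1031 and 1503 under the first 3 of these. The 2370 calls of LAGIPRA against Vehicle became 45 with the value of 1 read, 1478 with the muscle mean and 4783 with array weights, and 945 to 3819 with a library left out. The 2046 calls of LAGIPRA against PairFedVehicle became 1257 with the value of 1 read and 3260 with array weights. The 69 calls of TZP against LAGIPRA ranged from 0 with the length slope to 2251 with TZP libraries 3 to 6 only. With the length slope the TZP comparisons rest on few libraries with the same slope as the others.

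Replicate numbers did not pair the libraries, since 12 of 36 same-numbered pairs correlated above 0.1 and 5 of 24 libraries correlated best with their own number. With a replicate block 4 regulators were called for TZP against Vehicle, 2 for LAGIPRA and 2 for PairFedVehicle, and 2, 0 and 2 for TZP against PairFedVehicle, TZP against LAGIPRA and LAGIPRA against PairFedVehicle. For TZP against PairFedVehicle the members of the count differed: under the block Prdm16 was not called (adjusted p = 0.0584) and Zic1 was (adjusted p = 0.0444). Read depth is unknown, so no limit of detection is given.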
